A study of Mus musculus with 6 samples.

Results

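The HIPK and DYRK kinases were followed in OT-I T cells given disulfiram (DSF). They are 7 genes, Hipk1, Hipk2, Hipk3, Dyrk1a, Dyrk1b, Dyrk2 and Dyrk3, of the 55536 genes in the deposited table, and were taken by symbol. The family was chosen by the measured values of Hipk1, which stood nearly 3-fold higher with DSF at a high level in these same libraries. The members' differences between DSF and DMSO are therefore given as a description, with no p, and counts of calls among them stand only beside the share of all genes called. All 7 passed the filter on low counts that left 14318 genes for testing.

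Primary T cells of the OT-I line, taken from mouse lymph nodes and labelled wildtype, were kept for 2 h with DSF or with dimethyl sulfoxide (DMSO), the solvent, and 3 RNA libraries were sequenced in each group. Cells of that line share 1 transgenic receptor, which recognises an ovalbumin peptide, and both groups carry it. DSF is a thiuram disulfide given against alcohol dependence. The labels give no concentration, no stimulation of the cells and no age of the mice. Libraries are labelled as biological replicates, but no animal or culture is named, so p-values measure the spread between these libraries. The libraries held 18082264 to 21893720 estimated counts. A floor of 3 counts was worth 0.137 to 0.166 CPM (counts scaled to library size) and covers counting error only. All directions assume that code DO of the deposited table means DMSO and code DF means DSF, which no label states outright.

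The labelled cell type was checked on its markers. In DMSO, Cd3e averaged 229 CPM, Cd8a 411 and Trac 125, while Cd4 averaged 1.22. The summed level of 6 B cell markers ran from 33.9 to 37.4 CPM in DMSO and from 34.1 to 36.7 with DSF. That of 8 myeloid and dendritic markers ran from 64.6 to 68.0 and from 56.9 to 60.2 CPM, with Xcr1 and Mpeg1 lower by edgeR's test. That of 4 natural killer markers ran from 45.4 to 47.1 and from 36.8 to 39.3 CPM. Nearly all of it was Eomes, which CD8 T cells also express and which was lower by edgeR's test, at 43.0 and 34.6 CPM. The group means of the defining gene Ncr1 lay under the floor, at 0.063 and 0.107 CPM, and its highest library reached 0.222 CPM. The summed level of 7 stromal, endothelial and erythroid markers ran from 33.2 to 37.8 and from 32.5 to 38.6 CPM. Nearly all of it was Pecam1, at 33.2 and 32.5 CPM, and Cdh5 was at 0 CPM in DMSO. Of 9 T cell markers, 4 (Cd8a, Trac, Cd247 and Cd3g) were lower by edgeR's test and 0 higher with DSF. Of all tested genes, 11.3% were called lower and 11.6% higher. With DSF, Cd8a averaged 350 CPM, Trac 105 and Cd3e, which did not pass, 218. The part of these shifts in the results below was not tested. In bulk RNA, a change in the number of cells of a type cannot be told apart from a change in RNA per cell.

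Homeodomain-interacting protein kinases (HIPK) and dual-specificity tyrosine-regulated kinases (DYRK) are sister branches of the CMGC group of protein kinases. Both phosphorylate serine and threonine in their substrates, and they become active by phosphorylating a tyrosine of their own activation loop as they fold. HIPK proteins sit mostly in the nucleus, where they act on transcription factors and corepressors, and HIPK2 is best known for phosphorylating p53. DYRK1A and DYRK2 phosphorylate NFAT factors and oppose the phosphatase calcineurin, which drives NFAT into the nucleus after T cell receptor signalling. DYRK1A also phosphorylates LIN52 and thereby helps to assemble the DREAM complex, which represses cell cycle genes.

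The start regions of the members with the highest ratios between groups are shown because a shared short sequence could be looked for there. RefSeq's windows of 300 bases, from 250 before to 50 after each annotated start (GRCm38.p6), held 12 windows for all 7 members. The windows were searched on both strands for 7 motifs: CRE (TGACGTCA), AP-1 (TGANTCA), MRE, the metal response element (TGCACNC or TGCGCNC), ARE, the antioxidant response element (TGACNNNGC), HSE, a heat shock unit (GAANNTTC), the E-box (CACGTG) and CCAAT. Capitals mark every match.
Hipk1, upstream start, chr3:103791512-103791811, minus strand: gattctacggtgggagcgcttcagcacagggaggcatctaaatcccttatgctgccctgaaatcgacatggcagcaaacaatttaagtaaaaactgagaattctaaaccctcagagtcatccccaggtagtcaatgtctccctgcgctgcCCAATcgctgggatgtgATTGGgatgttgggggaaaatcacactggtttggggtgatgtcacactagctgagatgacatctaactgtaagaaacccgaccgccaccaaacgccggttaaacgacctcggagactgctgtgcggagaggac
Hipk1, downstream start, chr3:103791226-103791525, minus strand: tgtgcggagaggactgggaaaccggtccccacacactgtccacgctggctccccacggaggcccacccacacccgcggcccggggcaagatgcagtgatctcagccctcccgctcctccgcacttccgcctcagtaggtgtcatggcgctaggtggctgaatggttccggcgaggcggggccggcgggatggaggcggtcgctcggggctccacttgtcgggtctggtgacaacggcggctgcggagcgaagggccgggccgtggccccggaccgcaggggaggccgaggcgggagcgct
Dyrk2, chr10:118868854-118869153, minus strand: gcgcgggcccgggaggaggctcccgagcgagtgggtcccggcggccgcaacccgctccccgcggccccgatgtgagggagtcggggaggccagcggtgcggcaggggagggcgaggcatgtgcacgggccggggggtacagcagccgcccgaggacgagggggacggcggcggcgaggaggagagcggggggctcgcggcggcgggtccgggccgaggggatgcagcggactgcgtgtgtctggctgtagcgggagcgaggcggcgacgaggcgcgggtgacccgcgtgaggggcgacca
Dyrk3, chr1:131138185-131138484, minus strand: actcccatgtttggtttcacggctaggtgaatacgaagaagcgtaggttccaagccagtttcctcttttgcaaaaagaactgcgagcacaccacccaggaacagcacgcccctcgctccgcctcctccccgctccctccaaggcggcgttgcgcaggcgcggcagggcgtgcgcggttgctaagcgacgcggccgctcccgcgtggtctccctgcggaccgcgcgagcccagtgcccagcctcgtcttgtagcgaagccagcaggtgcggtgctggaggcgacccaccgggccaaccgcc
Dyrk1b, upstream start, chr7:28179233-28179532, plus strand: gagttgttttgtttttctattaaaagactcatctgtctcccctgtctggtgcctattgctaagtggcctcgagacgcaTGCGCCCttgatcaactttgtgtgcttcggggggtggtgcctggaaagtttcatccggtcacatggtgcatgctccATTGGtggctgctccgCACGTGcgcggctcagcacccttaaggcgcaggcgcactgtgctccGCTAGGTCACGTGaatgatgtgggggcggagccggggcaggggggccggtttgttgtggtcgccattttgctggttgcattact

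The 2 Hipk1 windows overlap at one end. The upstream one holds CCAAT on both strands, at 100 and 83 bases before the start. The Dyrk2 and Dyrk3 windows and the downstream Hipk1 window hold no match to any of the 7 motifs. GENCODE M21 puts the upstream end of Dyrk2 at 118870209, beyond its RefSeq window, so the bases before that start were not searched. The Dyrk1b window holds 2 E-boxes, of which the one nearer the start overlaps an ARE match, with an MRE and a CCAAT match further upstream. The other Dyrk1b window, chr7:28180066-28180365, with 77.3% G and C, is not printed and holds no match to any of the 7 motifs. Over all 12 member windows CRE, AP-1 and HSE matched in 0, against 1.79%, 7.81% and 7.86% of 32851 windows of the same length. MRE matched in 4 member windows, of Dyrk1a, Dyrk1b and Hipk2, against 25.7% of all windows, and CCAAT in 3, of Dyrk1a, Dyrk1b and Hipk1, against 37.4%. ARE and the E-box matched in 1 each, that of Dyrk1b, against 12.4% and 7.15%. These are matches of letters and show no binding. The G and C share was 79.0% in the Dyrk2 window, 66.3% in that of Dyrk3 and 51.0% and 72.0% in those of Hipk1, where the median of all windows was 52.7%.

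Across the 7 members, 6 lay higher with DSF in every library than in any DMSO library, and 1, Hipk2, overlapped between groups. In 17.6% of tested genes the DSF libraries all lay above the DMSO libraries. By edgeR's quasi-likelihood test at a Benjamini-Hochberg adjusted p under 0.05, the same 6 members were called higher and 0 lower, where 11.6% of tested genes were called higher and 11.3% lower. Of the members, 3 were called and at least 2-fold higher, as were 1.49% of tested genes. In the authors' deposited table, 6 members were called higher in DF than in DO, where 4.47% of the genes it tests were higher and 4.08% lower. The contrast is the one that chose the set, so nothing is read from these counts. The median log2 fold change was 0.95 over the members and 0.00 over all tested genes.

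**Figure D1:**
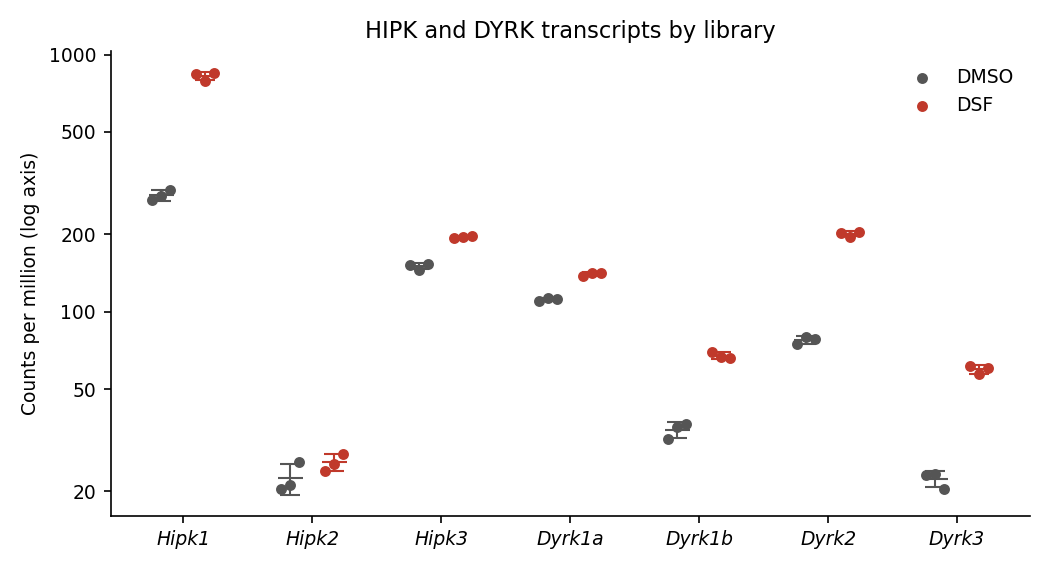
CPM on a log axis for each of the 7 members, with 1 point per library, DMSO in grey and DSF in red, and bars for the mean ± SD (n = 3 per group). The groups lie apart for every member but Hipk2.

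Hipk1 encodes a nuclear kinase that binds p53 and DAXX. Its CPM were 272, 280 and 298 in the DMSO libraries and 839, 790 and 846 in the DSF libraries. The lowest DSF library thus stood far above the highest DMSO library. The mean went from 283.5 ± 13.5 to 825 ± 30.9 CPM (SD, n = 3), a log2 fold change of 1.54 ± 0.04 (SE) or 2.91-fold. These levels rest on 5018 to 6166 counts per DMSO library and 15148 to 17625 per DSF library. In DMSO, 2865 tested genes lay at or above the TPM of Hipk1 (a transcript level corrected for gene length and library size), and 2 of those had a larger log2 fold change. The fold and level of Hipk1 chose the family, so this standing is a description only. Hipk1 (ENSMUSG00000008730) lies on the minus strand of chromosome 3 at 103739815 to 103791563 (GENCODE M21, GRCm38). Its exons share 729 of 10914 bases (6.68%) with Gm15886 on the opposite strand, which had 0 counts in every library.

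Hipk3 encodes a kinase known to bind FADD and nuclear receptors. Its CPM were 152, 145 and 154 with DMSO and 193, 194 and 198 with DSF. The groups did not overlap, and the spread inside each was small beside the gap, but the difference was far smaller than for Hipk1. The mean went from 150.3 ± 4.32 to 195 ± 2.36 CPM (SD, n = 3), a log2 fold change of 0.38 ± 0.04 (SE) or 1.30-fold. Hipk3 (ENSMUSG00000027177) lies on the minus strand of chromosome 2 at 104426481 to 104494446, and 80 of its exon bases are those of Mir1902 on the same strand, which had 0 counts.

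Hipk2, the p53 kinase, was the least abundant HIPK member, with 376 to 584 counts per library. Its CPM were 20.4, 21.1 and 25.97 with DMSO and 24.1, 25.6 and 28.0 with DSF. DMSO library 3 lay above DSF libraries 1 and 2, so the groups overlapped. The mean of 22.5 ± 3.04 CPM in DMSO and 25.9 ± 2.01 with DSF (SD, n = 3) gave a log2 fold change of 0.21 ± 0.08 (SE). Leaving out 1 library gave 0.15 to 0.33, the highest being that without DMSO library 3. Hipk2 (ENSMUSG00000061436) lies on the minus strand of chromosome 6 at 38694390 to 38876165, and its estimated counts were not whole numbers in any library. The fourth family gene, Hipk4, had 5 to 10 counts per library and was not tested.

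Of the 4 DYRK members, Dyrk3 and Dyrk2 had the highest ratios between groups. Dyrk2 encodes a kinase of p53 and NFAT that also primes JUN and MYC for degradation and acts on the proteasome. Its CPM were 74.8, 80.0 and 78.4 with DMSO and 202, 196 and 204 with DSF. All DSF libraries lay far above all DMSO libraries. The mean went from 77.8 ± 2.64 to 200.7 ± 4.60 CPM (SD, n = 3), a log2 fold change of 1.37 ± 0.04 (SE) or 2.58-fold. Dyrk2 (ENSMUSG00000028630) lies on the minus strand of chromosome 10 at 118855603 to 118870209. Its exons share 328 of 6251 bases (5.25%) with the gene 4932442E05Rik on the opposite strand, and the sources do not say if reads were counted by strand. That gene had 62.9, 66.9 and 78.6 estimated counts with DMSO and 210.5, 239 and 294 with DSF, and so stood higher with DSF too. Dyrk2 had 1382 to 4258 estimated counts. Without strand, reads of the pair cannot be told apart, and the part of shared reads in these values was not tested.

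Dyrk3 encodes a kinase that dissolves stress granules and other condensates and releases mTORC1 signalling. Its CPM were 23.1, 23.3 and 20.5 with DMSO and 61.6, 57.1 and 60.2 with DSF. The groups were well apart although Dyrk3 had the lowest CPM of the DYRK members in DMSO. The mean went from 22.3 ± 1.59 to 59.6 ± 2.33 CPM (SD, n = 3), a log2 fold change of 1.42 ± 0.06 (SE) or 2.67-fold. Dyrk3 (ENSMUSG00000016526) lies on the minus strand of chromosome 1 at 131127455 to 131138340 and shares no exon base with another annotated gene.

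Dyrk1b encodes a kinase linked to cell cycle exit. Its CPM were 32.0, 35.5 and 36.6 with DMSO and 69.8, 66.5 and 65.8 with DSF, with no overlap. The mean went from 34.7 ± 2.41 to 67.4 ± 2.16 CPM (SD, n = 3), a log2 fold change of 0.95 ± 0.05 (SE) or 1.94-fold. Dyrk1b (ENSMUSG00000002409) lies on the plus strand of chromosome 7 at 28179469 to 28187294.

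Dyrk1a, the kinase of NFAT and LIN52, had CPM of 109.5, 113 and 111 with DMSO and 137, 141 and 142 with DSF. The groups did not overlap, and its library-to-library spread in DMSO, at 1.41% of the mean, was the smallest of the 7. The mean went from 111 ± 1.56 to 140.0 ± 2.25 CPM (SD, n = 3), a log2 fold change of 0.33 ± 0.04 (SE) or 1.26-fold. Dyrk1a (ENSMUSG00000022897) lies on the plus strand of chromosome 16 at 94570010 to 94695517. Neither Dyrk1a nor Dyrk1b shares an exon base with another annotated gene. Dyrk4, at 1.48 ± 0.455 and 1.22 ± 0.257 CPM (SD, n = 3), did not pass (edgeR's adjusted p = 0.544).

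Levels were compared between genes in TPM. In DMSO the order was Hipk1 at 46.0 ± 3.71, Dyrk1a at 29.4 ± 1.13, Hipk3 at 27.8 ± 1.17, Dyrk2 at 16.4 ± 0.918, Dyrk3 at 9.88 ± 0.446, Hipk2 at 4.82 ± 0.965 and Dyrk1b at 4.03 ± 0.429 TPM (SD, n = 3). The libraries of Dyrk1a and Hipk3 overlapped, as did those of Hipk2 and Dyrk1b, and no other neighbours did. With DSF the order was Hipk1 at 138 ± 5.17, Dyrk2 at 44.3 ± 1.26, Dyrk1a at 38.9 ± 1.54, Hipk3 at 36.7 ± 1.09, Dyrk3 at 26.4 ± 1.09, Dyrk1b at 8.13 ± 0.300 and Hipk2 at 6.01 ± 0.324 TPM (SD, n = 3). Dyrk2 thus moved from below Dyrk1a and Hipk3 to above both. Its TPM was 0.546, 0.561 and 0.567 of that of Dyrk1a in the DMSO libraries and 1.21, 1.13 and 1.08 of it in the DSF libraries. In DSF, Dyrk1a and Hipk3 again overlapped, and the other neighbours did not.

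The TPM of Dyrk1b stands on an unusual length. Dividing counts by TPM, and scaling by 2374 tested genes with a single annotated transcript, gives the length that the deposited TPM imply. That length was 11363 to 12170 bases for Dyrk1b, against 2534 bases for its longest transcript in GENCODE M21. For Hipk1 it was 8341 to 8603 bases against 7939, for Dyrk3 3036 to 3197 against 3164 and for Dyrk2 6246 to 6592 against 6129. Per kilobase of the longest coding transcript, Dyrk1b was at 13.7 ± 0.950 CPM in DMSO (SD, n = 3), which put it beside Dyrk2, at 12.7 ± 0.431, and above Dyrk3, at 7.05 ± 0.503. The place of Dyrk1b in the order therefore depends on the length used, whereas its ratio between groups was 1.94 in CPM and 2.02 in TPM. With DSF, Dyrk1b was at 26.6 ± 0.853 CPM per kilobase, beside Hipk3 at 26.2 ± 0.317 and above Dyrk1a at 24.3 ± 0.390 (SD, n = 3). Hipk3 thus lay above Dyrk1a with DSF, the reverse of their order in TPM. In DMSO the libraries of Hipk3 and Dyrk1a overlapped on this scale too. On the same scale Hipk1 stayed first in both groups, at 35.7 ± 1.70 and 104 ± 3.89 CPM per kilobase (SD, n = 3).

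Summed over the family, the level was 131, 138 and 146 TPM in the DMSO libraries and 303, 291 and 301 in the DSF libraries, a ratio of means of 2.16. The 2 groups were far apart on this sum. Hipk1 made up 57.5% of the gain of 159.9 TPM, Dyrk2 17.4%, Dyrk3 10.3%, Dyrk1a 5.89%, Hipk3 5.56%, Dyrk1b 2.57% and Hipk2 0.740%. The sums, shares and gains of this paragraph use the deposited TPM, so they depend on the length behind the TPM of Dyrk1b. Per kilobase of the longest coding transcript, Dyrk1b went from 13.7 to 26.6 CPM and Dyrk3 from 7.05 to 18.8 CPM. The share of Hipk1 in the family was 33.2 ± 1.01% with DMSO and 46.2 ± 0.721% with DSF, and that of Hipk3 was 20.1 ± 0.950% and 12.3 ± 0.629% (SD, n = 3). Without Hipk1 the sum was 92.4 ± 3.47 and 160.3 ± 1.43 TPM (SD, n = 3). The HIPK total over the DYRK total was 1.31 ± 0.081 and 1.53 ± 0.009 in TPM (SD, n = 3). This ratio, too, depends on the length used for Dyrk1b.

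**Figure D2:**
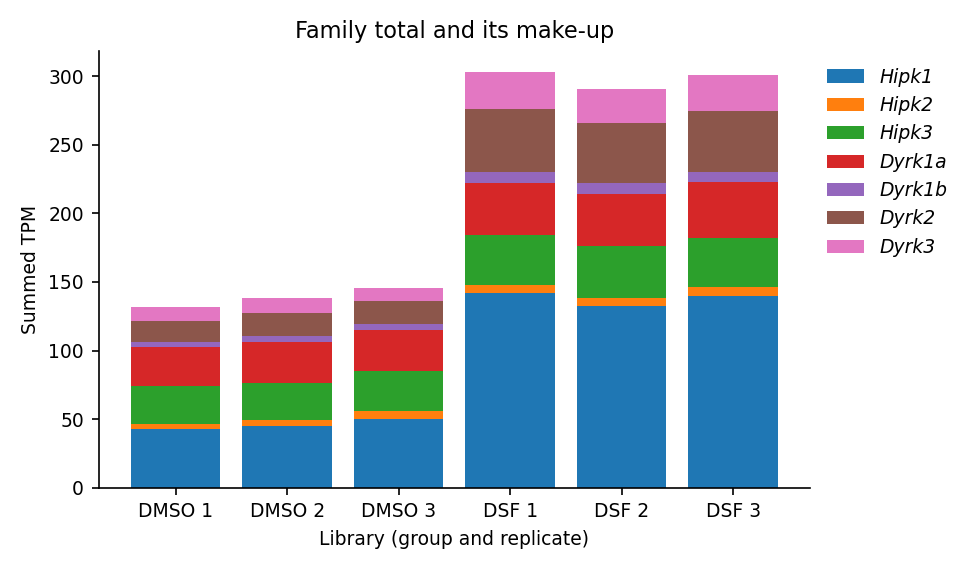
Stacked bars of TPM for the 7 members in each of the 6 libraries, by group and replicate. The bars reach 131 to 146 TPM with DMSO and 291 to 303 with DSF, and the Hipk1 block takes the largest part of the difference.

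The authors' deposited table also compares DF and DO with a further group, coded DC, which the labels do not explain and of which no library was analysed here. In the authors' deposited table Hipk1 stood at 0.354 of its DF level in DC, Dyrk3 at 0.351, Dyrk2 at 0.387 and Dyrk1b at 0.540. For Hipk3, Dyrk1a and Hipk2 the authors' deposited table gives 0.777, 0.838 and 0.951. Against DO, the same authors' deposited table gives DC folds of 1.03 for Hipk1, 1.10 for Hipk2, 1.01 for Hipk3, 1.06 for Dyrk1a, 1.05 for Dyrk1b, 1.00 for Dyrk2 and 0.940 for Dyrk3. The members thus stood within 0.940 and 1.10 of their DO levels in DC, and the 4 with the highest DF over DO folds had the lowest DC over DF folds. By the adjusted p of the authors' deposited table at 0.05, 6 members were lower in DC than in DF, where 3.94% of the genes that table tests were lower. Against DO, by the same authors' deposited table, 0 members were called, where 0.0779% of genes were higher and 0.267% lower. The 3 comparisons share groups in pairs, and the DF libraries are those that chose the members, so the comparison of DC with DF is no independent check.

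**Figure D3:**
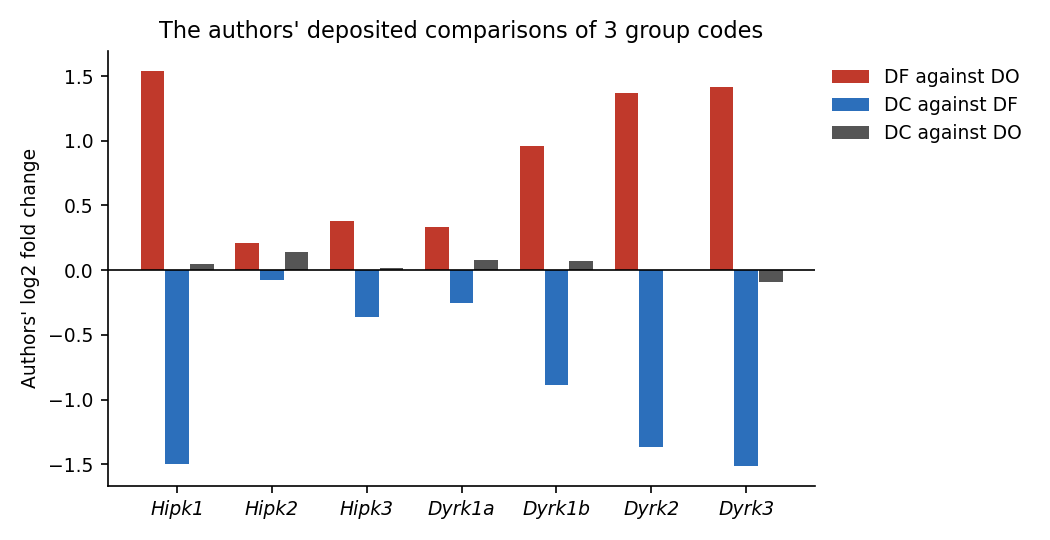
Log2 fold changes from the authors' deposited table for the 7 members, with DF against DO in red, DC against DF in blue and DC against DO in grey. The grey bars lie between -0.09 and 0.14, and the red and blue bars of Hipk1 reach 1.54 and -1.50.

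The genes most like Hipk1 across the 6 libraries were found by the root-mean-square difference of log2 CPM, each gene centred on its own mean, among 10209 other genes of at least 5 CPM. The closest was Cd69, an early activation marker that holds T cells in lymph nodes, at 0.040, with 43.9 CPM in DMSO and 128 with DSF. It was followed by Mppe1 at 0.043, by Wee1, a kinase that holds back mitosis, at 0.051, by Atp2b1, a calcium pump of the plasma membrane, at 0.067 and by Tagap, a T cell GTPase-activating protein, at 0.069. Their folds between DSF and DMSO ran from 2.83 for Atp2b1 to 3.07 for Tagap, against 2.91 for Hipk1. Since likeness was measured over libraries of 2 groups, it mainly matches the size of the group difference.

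The other genes of these pathways were read from 5 lists of 112 different genes, in the fit over all genes, in which 22.9% of tested genes were called. The lists were chosen with earlier results of these data known, so their called shares are a description. Of the 18 nearest kinase relatives, 15 were tested, and 3 were higher, 2 lower and 10 did not pass. That is a called share of 33.3%, and the median log2 fold change was 0.04. Mok, a kinase of the RCK family, had the largest fold but lay near the floor, at 0.405 ± 0.169 and 1.24 ± 0.249 CPM (SD, n = 3, edgeR's adjusted p = 0.00146). Srpk1, a kinase of splicing factors, rose 1.11-fold, from 180 ± 3.16 to 199.9 ± 3.82 CPM (SD, n = 3, edgeR's adjusted p = 0.00202). Ick, a kinase of cilia, rose from 11.7, 10.4 and 10.9 CPM to 13.6, 12.7 and 16.1 CPM (edgeR's adjusted p = 0.00651, or 0.103 without DSF library 3). Prpf4b, a spliceosome kinase, fell to 0.930 (edgeR's adjusted p = 0.033). Leaving out the first or the third DMSO library raised that p to 0.0951 and 0.147 by edgeR, leaving out the second or the third DSF library raised it to 0.181 and 0.141, and the list then held 0 lower genes. Clk1 and Clk4, splicing kinases close to the DYRK branch, were at 132 ± 5.70 and 131 ± 1.55 CPM and at 45.2 ± 0.125 and 42.8 ± 1.93 CPM (SD, n = 3), and neither passed (edgeR's adjusted p = 0.955 and 0.309).

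HIPK partners, which are substrates, cofactors and the ligases that turn HIPK proteins over, went both ways. Of 30, 29 were tested, and 5 were higher, 6 lower and 18 did not pass. The called share was 37.9% beside 22.9% of all tested genes, with a median log2 fold change of 0.03. Myb, a transcription factor that HIPK2 marks for degradation, fell from 101, 98.2 and 103 CPM to 64.0, 69.8 and 68.4 CPM, to 0.670 of its DMSO level (edgeR's adjusted p = 3.87e-11). Lef1, a Wnt factor that HIPK2 phosphorylates, fell from 86.5 ± 3.18 to 63.4 ± 1.95 CPM (SD, n = 3, edgeR's adjusted p = 1.01e-08). Ep300, an acetyltransferase, rose from 249 ± 14.8 to 306 ± 11.8 CPM (SD, n = 3, edgeR's adjusted p = 9.65e-07). Wsb1, a ligase subunit that marks HIPK2 for degradation, rose from 83.9 ± 3.08 to 100.5 ± 1.88 CPM (SD, n = 3, edgeR's adjusted p = 4.77e-05). Siah2, another such ligase, at 22.7 ± 0.972 and 24.9 ± 1.26 CPM, and Trp53, at 144 ± 8.99 and 138 ± 2.09 CPM (SD, n = 3), did not pass (edgeR's adjusted p = 0.199 and 0.344). The list held 3 higher genes without DMSO library 1 or DSF library 2 or 3, and 3 lower genes without DMSO library 3 or DSF library 2.

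Of 32 DYRK partners, 31 were tested, and 4 were higher, 3 lower and 24 did not pass, a called share of 22.6% beside 22.9% of all tested genes, with a median log2 fold change of 0.00. Myc, which DYRK2 primes for degradation, fell from 107, 116 and 108 CPM to 64.1, 71.1 and 65.2 CPM, to 0.605 of its DMSO level (edgeR's adjusted p = 5.74e-13). Stat3, a cytokine signal transducer, fell from 849 ± 19.4 to 691 ± 10.2 CPM (SD, n = 3, edgeR's adjusted p = 5.78e-09). Foxo1, a factor of naive T cells that DYRK1A phosphorylates, fell from 103 ± 4.23 to 88.9 ± 2.19 CPM (SD, n = 3, edgeR's adjusted p = 0.000985). Spred2, an inhibitor of RAS signalling, rose from 53.4 ± 2.30 to 67.7 ± 3.86 CPM (SD, n = 3, edgeR's adjusted p = 8.05e-06). Dcaf7, the adaptor that DYRK1A, DYRK1B and HIPK2 bind, was at 252 ± 4.38 and 261 ± 3.91 CPM, and Ccnd3, a D-type cyclin, at 127 ± 2.27 and 123 ± 1.32 CPM (SD, n = 3). Neither passed (edgeR's adjusted p = 0.296 and 0.44). The list held 1 higher gene without DMSO library 2 and 2 without DMSO library 3 or DSF library 3.

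In the calcineurin and NFAT list, which holds the pathway that DYRK kinases oppose, 16 of 20 genes were tested. Of these, 4 were higher, 1 lower and 11 did not pass. The called share was 31.25% beside 22.9% of all tested genes, with a median log2 fold change of 0.04. Nfatc2, the gene for NFAT1, rose from 68.2, 71.8 and 73.0 CPM to 101.5, 105.6 and 108 CPM, 1.48-fold (edgeR's adjusted p = 4.95e-11). Rcan3, which encodes a calcineurin regulator, rose from 41.9 ± 1.20 to 51.0 ± 0.911 CPM (SD, n = 3, edgeR's adjusted p = 7.48e-05), and the calmodulin gene Calm2 rose from 279 ± 8.59 to 309 ± 1.94 CPM (SD, n = 3, edgeR's adjusted p = 0.0013). Nfatc3 fell from 234 ± 7.67 to 214 ± 1.40 CPM (SD, n = 3, edgeR's adjusted p = 0.00851). Leaving out the third DMSO or the second DSF library raised that p to 0.0675 and 0.0598 by edgeR, and the list then held 0 lower genes. Nfatc1, at 147.5 ± 10.9 and 135 ± 7.19 CPM (SD, n = 3), did not pass (edgeR's adjusted p = 0.0777), and was lower without DMSO library 1 (0.00271). Without that library the list held 2 lower genes. Rcan1, a feedback inhibitor that NFAT induces, was at 10.6 ± 0.817 and 10.5 ± 0.475 CPM (SD, n = 3) and did not pass (edgeR's adjusted p = 0.917).

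All 13 genes of the DREAM and RB-like list, which also holds Mybl2 and Foxm1, were tested, and 2 were higher, 3 lower and 8 did not pass. The called share was 38.5% beside 22.9% of all tested genes, with a median log2 fold change of -0.07. Lin54, the DNA-binding subunit of the DREAM complex, rose from 47.3 ± 0.883 to 59.8 ± 3.11 CPM (SD, n = 3, edgeR's adjusted p = 6.81e-06). The pocket protein gene Rbl2 fell from 134 ± 3.93 to 117 ± 4.56 CPM (SD, n = 3, edgeR's adjusted p = 0.000738). Tfdp2, an E2F partner, rose 1.12-fold (edgeR's adjusted p = 0.0179). Leaving out DMSO library 2, DSF library 1 or DSF library 3 raised that p to 0.0936, 0.0998 and 0.0571 by edgeR, and the list then held 1 higher gene. Rbl1 fell to 0.910 (edgeR's adjusted p = 0.0211). Leaving out DMSO library 3 or any 1 of the 3 DSF libraries raised that p to between 0.0580 and 0.1075 by edgeR, and the list then held 1 lower gene.

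**Figure D4:**
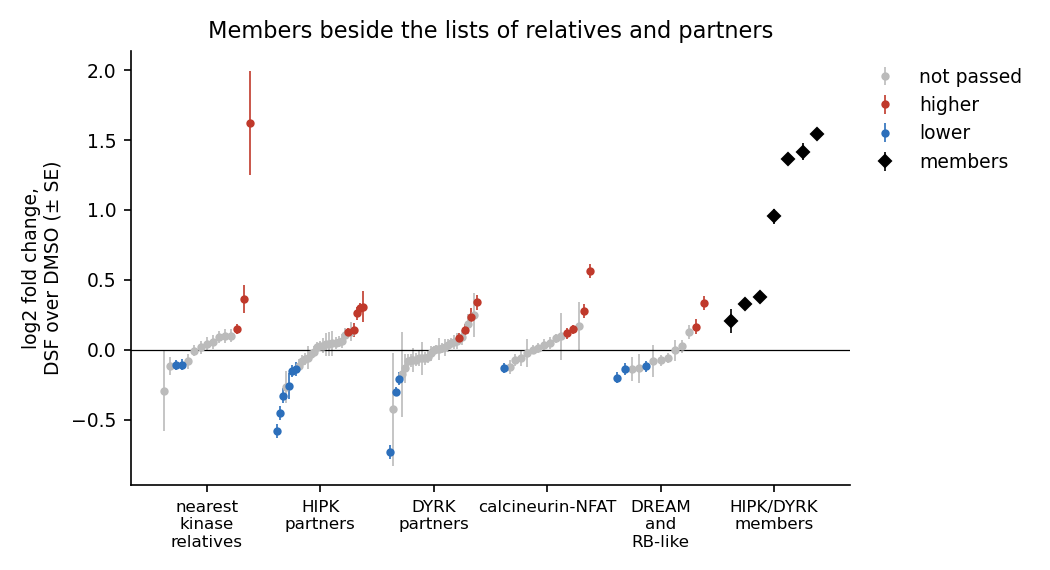
Log2 fold change of DSF over DMSO with its SE for each tested gene of the 5 lists and for the 7 members (black), with genes called higher in red, lower in blue and not passed in grey. Apart from Mok, every gene of the lists lies below the 4 highest members.

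Exons of Myb, Lef1, Stat3, Foxo1, Ccnd3, Dcaf7, Nfatc3, Prpf4b and Rbl2 overlap a gene of the other strand, and those of Clk4, Ep300 and Rcan3 overlap a small gene of their own strand. Their counts are uncertain because the reads could have been split. With limma on log2(TPM + 0.5) in place of counts, the calls of Srpk1, Ick, Prpf4b, Ep300, Foxo1, Rcan3, Nfatc3, Rbl2, Rbl1 and Tfdp2 ended, and those of Mok, Myb, Lef1, Wsb1, Myc, Stat3, Spred2, Nfatc2, Calm2 and Lin54 did not.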

How the data were processed

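Libraries were made from total RNA with a SMARTER kit, per the labels' protocols, and the genome build is listed as GRCm38 (mm10) in the submitters' processing notes. The aligner, the counter, its annotation and its use of strand were not given in the sources used here. One deposited table holds estimated counts and TPM per library, which the authors computed. Its group means of TPM headed DO and DF equal the means of the A and B columns in all 55536 genes, within 0.0001 TPM. Of its library columns, 0 were unused. The authors' fold ratios, log2 fold changes, p-values and adjusted p-values stand in it and in a further deposited table.

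Estimated counts were rounded (the design had assumed whole counts), filtered with filterByExpr, which left 14318 genes, scaled by TMM and tested with edgeR 4.0.16 in R 4.3.3 (quasi-likelihood test, robust settings), with group as the only term and Benjamini-Hochberg adjustment over all tested genes. Each SE was derived as the size of the log2 fold change divided by the root of the F statistic. CPM use TMM-scaled totals. The pipeline was tested on simulated data. Replicates differed by more than counting error (chi-square per degree of freedom 2.22 to 4.28).

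The members and lists were chosen with earlier results of these data known. Named genes were the members, the 4 called genes with the smallest p of each list and 12 genes in any case (Hipk4, Dyrk4, Dcaf7, Siah2, Wsb1, Nfatc1, Nfatc2, Rcan1, Ccnd3, Clk1, Clk4 and Trp53); 1 gene that this rule names is not reported here. One list symbol, Vprbp, was matched to Dcaf1 through RefSeq. Motifs and the length check were chosen after the data were seen. Positions are from GENCODE M21, and promoter windows are from RefSeq. The alternatives were DESeq2 1.42.0, RLE factors, library totals, no filter, limma 3.58.1 on log2(TPM + 0.5), a replicate block and leaving out each library.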

Additional observations from a re-analysis of the deposited data

How the results depend on the processing

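The members' log2 fold changes kept their direction under every alternative run. They moved by less than the spread between replicates, except that of Dyrk1a, at 0.39 with limma on log2(TPM + 0.5) against 0.33. Leaving out 1 library gave 1.51 to 1.58 for Hipk1, 0.15 to 0.33 for Hipk2, 0.35 to 0.40 for Hipk3, 0.32 to 0.35 for Dyrk1a, 0.90 to 1.00 for Dyrk1b, 1.34 to 1.39 for Dyrk2 and 1.36 to 1.45 for Dyrk3. Genes called numbered 3276, or 2565 to 2972 without 1 library (1334 to 1595 higher and 1231 to 1432 lower). With limma on log2(TPM + 0.5), 1377 were called, 834 higher and 543 lower. That setting left 1 higher and 0 lower relatives, 2 higher and 2 lower HIPK partners, 2 higher DYRK partners, 2 higher and 0 lower genes of calcineurin and NFAT, and 1 higher and 0 lower genes of DREAM. DESeq2 gave 1 lower relative and 1 higher DREAM gene, and no filter gave 1 lower relative and 2 lower genes of calcineurin and NFAT; the cause was not tested. Without 1 library the counts of higher and lower genes ran from 2 to 3 and 0 to 2 for relatives, 3 to 5 and 3 to 6 for HIPK partners, 1 to 4 and 3 to 3 for DYRK partners, 3 to 4 and 0 to 2 for calcineurin and NFAT, and 1 to 3 and 1 to 3 for DREAM.

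Libraries of the same replicate number correlated at 0.045, 0.035 and 0.055 in their deviations from the group means, below 0.1, so the numbers were not taken to pair them, although each correlated best with its own number. With the replicate block 3829 genes were called (1925 higher and 1904 lower), and calcineurin and NFAT held 2 lower genes, with Nfatc1 at an adjusted p of 0.00604 by edgeR. The direction turned only for genes that did not pass. With limma on log2(TPM + 0.5), Clk1 was at 0.027, Clk4 at 0.055, Ccnd3 at 0.053 and Rcan1 at 0.0084. Leaving out 1 library put Clk1 between -0.032 and 0.031, Dyrk4 between -0.42 and 0.0013 and Rcan1 between -0.061 and 0.046. Depth limits Hipk4, Dyrk4 and Mok, whose libraries hold few counts.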
